A study of Homo sapiens with 3 samples.

Results

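Splicing factor genes were examined in BE(2)-C cells, a human neuroblastoma line with amplified MYCN, 40 hours after siRNA transfection. The members were the genes whose symbol in the platform annotation starts with SRSF, SF3A, SF3B, SNRP, HNRNP or PRPF, or with U2AF or LSM followed by a digit, after pseudogenes were dropped. This rule gave 56 genes of the 14884 genes named on the array: 10 SRSF, 11 SNRP, 1 LSM, 3 U2AF, 10 PRPF and 21 HNRNP genes. SF3A and SF3B genes, and LSM genes other than LSM12, were not analysed here. The groups were cells given WDR5 siRNA-1, cells given WDR5 siRNA-2 and cells given a control siRNA, each read on 1 Affymetrix HuGene-2_0-st array. All 3 cultures were of this line. With 1 array per group there is no replicate error and no test was made, so every ratio sets 1 array against another. Both ratios to control use the same control array.

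Introns are removed from pre-mRNA by the spliceosome, which assembles from small nuclear ribonucleoproteins (snRNPs) on each intron. U2AF recognises the end of the intron, the Sm and LSM proteins form rings around the small nuclear RNAs, and PRPF proteins build and remodel the catalytic particle. SR proteins (SRSF) mostly promote the use of exons, and hnRNP proteins often oppose them. In tumours driven by MYC proteins, dependence on a working spliceosome is known, and HNRNPA1, HNRNPA2B1 and SRSF1 have been described as MYC-regulated genes in other tumour types.

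The targeted gene was checked first. WDR5, which scaffolds histone H3 lysine methyltransferases and is known to bind MYC proteins, was at a log2 value of 7.90 on the siRNA-1 array and 7.90 on the siRNA-2 array, against 9.46 on the control array. The siRNA arrays hold the same deposited value, 2.95 times lower than control. The deposited table had 53617 rows with array medians of 5.79, 5.79 and 5.81 for siRNA-1, siRNA-2 and control. Genes with a mean over the arrays of at least 6.78, the median of all named genes, were kept for the background (7442 genes). Of the members, 50 passed this limit and 6 did not, namely SRSF12, SNRPG, PRPF40B, HNRNPA3, HNRNPCL1 and HNRNPCL2. Of 13 measured markers of neuroblastoma, all passed the limit, among them HAND2, GATA3, PHOX2A and STMN2. Among markers of other cells, S100B, SOX10 and CD68 alone passed it, out of 8 measured. S100B and SOX10 were tied on the 3 arrays, and CD68 was at 8.14 with siRNA-1 and 7.83 with siRNA-2, against 7.75 with control. Of the neuroblastoma markers, DBH was at 9.58 and 10.90, against 10.39, and CHGA at 10.40 and 11.60, against 10.87, both lowest with siRNA-1. HAND2 was at 11.58 and 11.25, against 11.60, and GATA3 at 10.78 and 10.47, against 10.79, both lowest with siRNA-2. Over the 13 markers, 6 were lower with siRNA-1 than on the siRNA-2 array, 3 higher and the others tied. The part of such differences in the results below was not tested. A lower value in a culture can come from fewer cells of a kind or from less RNA per cell, which cannot be told apart here.

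The splicing factor genes differed little between the arrays. With both WDR5 siRNAs, 0 of the 50 kept members were higher by 1.5-fold or more (background 0.618% of all kept genes), and 0 were lower by as much (background 0.847%). Counted for siRNA-1 whatever siRNA-2 gave, 0 members were 1.5-fold higher (background 2.24%) and 0 were 1.5-fold lower (background 4.6%). Counted for siRNA-2 whatever siRNA-1 gave, 0 were higher (background 2.19%) and 1, SNRPB, was lower (background 4%). Shares this small correspond to few genes in a list of this size. The middle of the ratios was also close to control: the median log2 ratio was 0 with siRNA-1 and -0.06 with siRNA-2, and 0 over all kept genes with each. With siRNA-2 the members' median was -0.01 after median centring and -0.02 after quantile normalization. The median of all kept genes rose to 0.05 after each, so the background moved with the scaling too. The spread of the ratios was narrower than the background: the median absolute log2 ratio was 0.074 with siRNA-1 and 0.070 with siRNA-2 among members, against 0.106 and 0.091 among all kept genes.

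**Figure D1:**
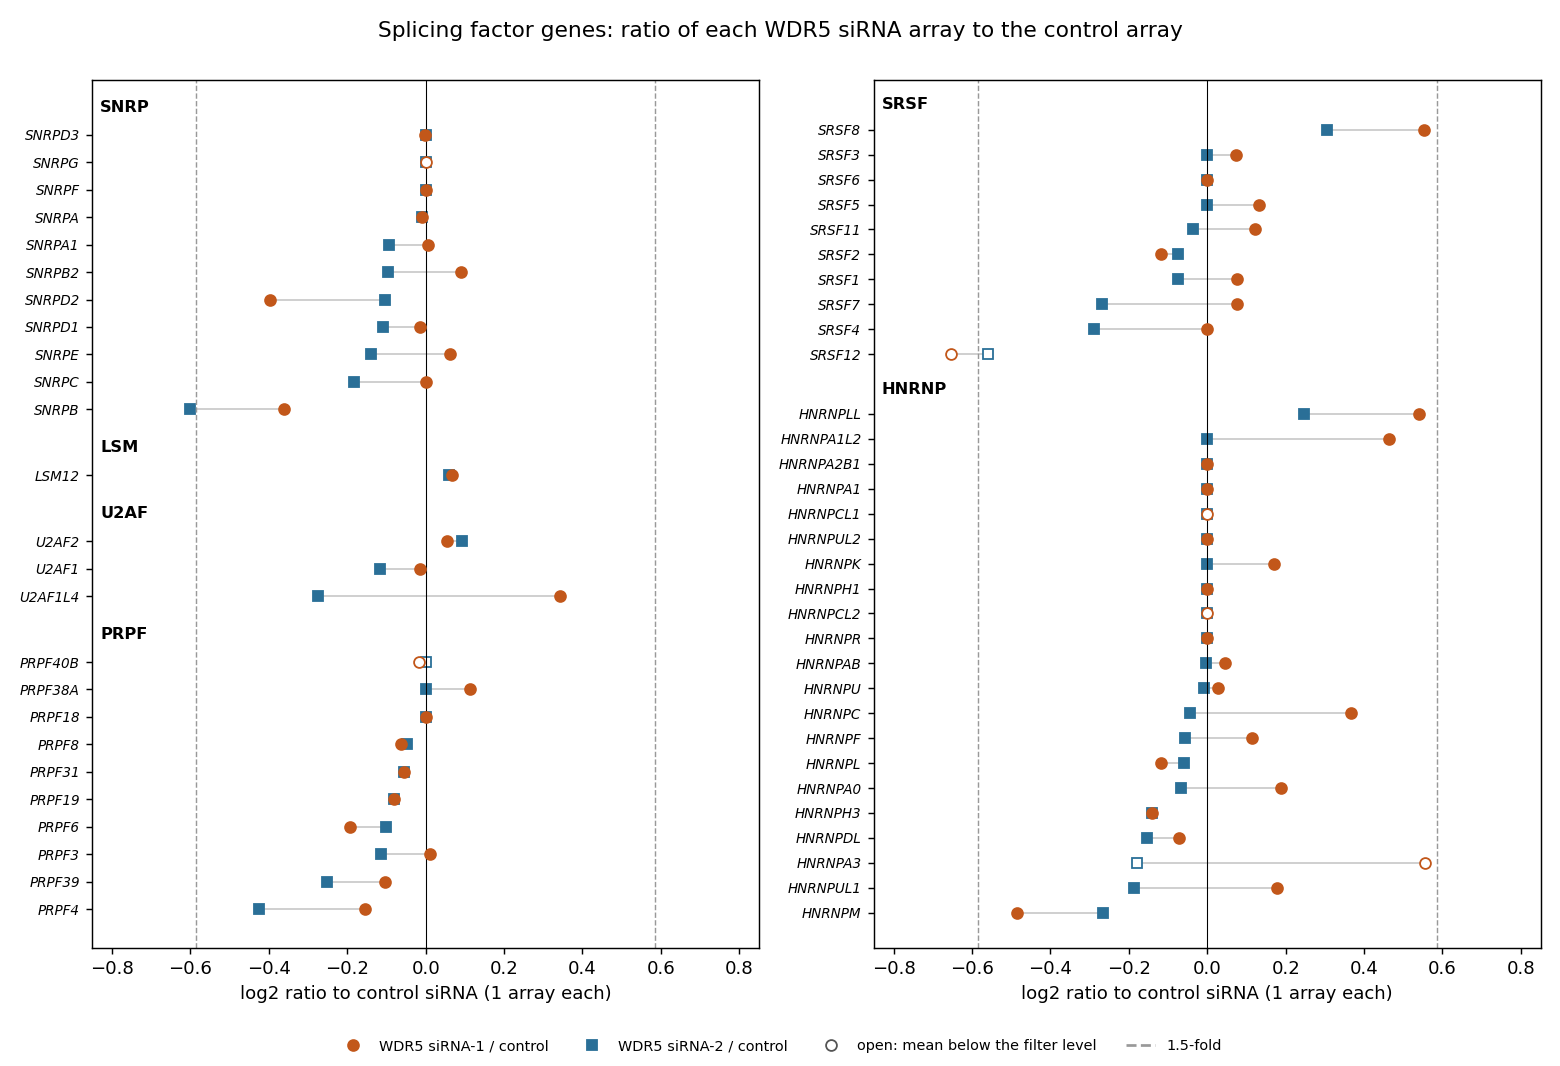
Log2 ratio to the control array for each of the 56 splicing factor genes, by family, with circles for WDR5 siRNA-1 and squares for WDR5 siRNA-2. Open symbols mark the 6 genes below the filter level and dashed lines mark 1.5-fold; SRSF12 with siRNA-1 and SNRPB with siRNA-2 are the 2 points beyond them.

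At a looser limit, a log2 ratio of 0.32, SNRPB was the only kept member to pass with both siRNAs. With siRNA-1, 5 were higher (SRSF8, HNRNPLL, HNRNPA1L2, HNRNPC and U2AF1L4; background 7.9%) and 3 lower (HNRNPM, SNRPD2 and SNRPB; background 12%). HNRNPA1L2 passed the filter only through its siRNA-1 value, so it had to be higher there, and 4 are left without it. With siRNA-2, 0 were higher (background 6.65%) and 2 lower (SNRPB and PRPF4; background 11.2%). With both, 0 were higher (background 2.47%) and 1, SNRPB, was lower (background 3.78%).

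Upstream sequences are shown for 4 members on which the ratios turn: SNRPB and SRSF12, which reached 1.5-fold below control with 1 siRNA each, SRSF8, which had the highest shared ratio, and HNRNPM, which had the lowest ratio with siRNA-1 among kept members. Each is the 250 bases before the RefSeq gene start (GRCh38.p14), 5′ to 3′ on the gene's strand. Capitals mark 4 motifs searched on both strands. CACGTG is the E-box bound by MYC and MAX. The CCAAT box is bound by NF-Y. The TATA box was searched as TATAAA. The core of the GC box, bound by SP1, was searched as GGGCGG. No matches overlap in these 4 stretches.
SNRPB (chr20:2470790-2471039, minus strand): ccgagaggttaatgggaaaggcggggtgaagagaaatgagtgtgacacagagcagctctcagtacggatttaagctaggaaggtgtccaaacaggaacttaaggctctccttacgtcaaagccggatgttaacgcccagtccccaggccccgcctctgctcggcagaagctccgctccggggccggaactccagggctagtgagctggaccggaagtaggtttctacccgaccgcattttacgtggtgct
SRSF12 (chr6:89118072-89118321, minus strand): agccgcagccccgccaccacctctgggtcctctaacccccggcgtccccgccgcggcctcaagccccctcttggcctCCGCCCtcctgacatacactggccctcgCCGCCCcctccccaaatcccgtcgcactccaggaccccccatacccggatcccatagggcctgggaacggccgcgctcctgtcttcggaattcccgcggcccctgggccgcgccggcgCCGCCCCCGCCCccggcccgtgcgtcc
SRSF8 (chr11:95066627-95066876, plus strand): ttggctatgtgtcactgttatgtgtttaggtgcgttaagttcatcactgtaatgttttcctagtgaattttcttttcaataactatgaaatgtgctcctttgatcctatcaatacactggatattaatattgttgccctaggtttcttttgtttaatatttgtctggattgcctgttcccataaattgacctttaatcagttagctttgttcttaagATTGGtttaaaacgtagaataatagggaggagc
HNRNPM (chr19:8444725-8444974, plus strand): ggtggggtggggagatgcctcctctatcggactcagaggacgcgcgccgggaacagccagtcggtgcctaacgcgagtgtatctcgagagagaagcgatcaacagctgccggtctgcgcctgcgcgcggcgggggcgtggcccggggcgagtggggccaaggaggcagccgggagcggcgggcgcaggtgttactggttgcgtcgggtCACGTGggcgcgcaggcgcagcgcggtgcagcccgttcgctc

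The SNRPB stretch held 0 of the 4 motifs and 15 CG dinucleotides, and that of SRSF12 held 4 copies of GGGCGG and 28 CG dinucleotides. The SRSF8 stretch was the poorest in G and C of the 4, at 33.6%, with 2 CG dinucleotides and 1 CCAAT. HNRNPM had 1 CACGTG and 33 CG dinucleotides. RefSeq promoters were found for 51 of the 56 members, 45 of them kept. CACGTG stood in 7.84% of the members' stretches, against 9.17% of those of all kept genes and 6.49% of all 27305 promoters. CCAAT stood in 49% of the members' stretches, against 36.1% and 33%, TATAAA in 9.8%, against 4.78% and 11.1%, and GGGCGG in 56.9%, against 68.9% and 42.3%. The members' shares are over all 51, including those below the filter level. Over the 45 kept, CACGTG stood in 6.67%, CCAAT in 46.7%, TATAAA in 11.1% and GGGCGG in 57.8%. A match describes the letters and is not evidence of binding.

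Of the SNRP genes, SNRPB encodes the SmB and SmB′ proteins of the Sm ring that surrounds most spliceosomal RNAs. Its log2 value was 11.61 with siRNA-1 and 11.37 with siRNA-2, against 11.98 with control. Both siRNA arrays lay below the control array, by log2 ratios of -0.36 and -0.60, which are 1.28-fold and 1.52-fold lower. The second ratio came to -0.57 with quantile normalization and -0.56 with median centring, short of 1.5-fold. SNRPD2, another ring protein, stood at 8.60 with siRNA-1 and 8.89 with siRNA-2, against 9.0 with control, so most of its difference was in the siRNA-1 array. SNRPD1 was at 9.35 and 9.26, against 9.37. The remaining ring genes were at control level or tied with it: SNRPD3 (ratios of -0.00068 and 0), SNRPF (0 and 0) and SNRPG (0 and 0). SNRPE had 2 probe sets that disagreed, with ratios of 0.06 and -0.14 for the brighter and of -0.04 and -0.04 for the dimmer. The U1 proteins SNRPA (-0.01 and -0.01) and SNRPC (0.00 and -0.18), and the U2 proteins SNRPA1 (0.01 and -0.09) and SNRPB2 (0.09 and -0.10), stayed within 0.2 of control. Over the 10 kept SNRP genes the median was -0.00034 with siRNA-1, 0.04 once median centred. With siRNA-2 it was -0.10, and -0.06 with either median centring or quantile normalization. With siRNA-2, 8 of the 10 were lower, 0 higher and 2 equal, where 41.6% of all kept genes were lower by any amount.

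The U2AF genes differed from each other. U2AF1 and U2AF2 encode the small and large subunits of the factor that binds the 3′ splice site, and U2AF1L4 encodes a relative of the small subunit. U2AF1 was at 8.45 with siRNA-1 and 8.35 with siRNA-2, against 8.46 with control. U2AF2 was at 11.41 and 11.45, against 11.35, so it was slightly above control on both arrays. U2AF1L4 was at 7.84 with siRNA-1 and 7.22 with siRNA-2, against 7.49 with control. It thus lay above control with one siRNA and below with the other, and the siRNA-1 array exceeded the siRNA-2 array 1.53-fold. LSM12, an RNA-binding protein with an LSM domain that is not part of the U6 ring, had ratios of 0.07 and 0.06.

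The PRPF genes leaned low. PRPF4, a protein of the U4/U6 snRNP, stood at 10.46 with siRNA-1 and 10.19 with siRNA-2, against 10.61 with control (log2 ratios of -0.16 and -0.42). PRPF6, which bridges the U5 and U4/U6 particles, was at 9.66 and 9.76, against 9.86. PRPF39, a U1-associated protein, was at 8.38 and 8.23, against 8.48. In these 3 genes both siRNA arrays were below the control array, by at most 1.34-fold. The same held by smaller amounts for PRPF19, the ubiquitin ligase of the catalytic complex (-0.08 and -0.08), PRPF31 (-0.06 and -0.06) and PRPF8, the scaffold of the catalytic centre (-0.06 and -0.05). PRPF18 was equal on the 3 arrays, PRPF38A was higher with siRNA-1 only (0.11 and 0), and PRPF3 differed in sign (0.01 and -0.11). PRPF40B, below the filter level, had -0.02 and 0. Thus 6 of the 9 kept PRPF genes were lower with both siRNAs and 0 higher with both, where 22.3% of all kept genes were lower with both by any amount. Among the 6, PRPF19 and PRPF31 had the same deposited value on both siRNA arrays. With quantile normalization PRPF8 came to -0.03 and 0.03, where the median of all kept genes was 0.03 and 0.05. The family medians were -0.06 with siRNA-1 and -0.08 with siRNA-2. With median centring they were -0.02 and -0.03, against 0.04 and 0.05 for all kept genes.

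**Figure D2:**
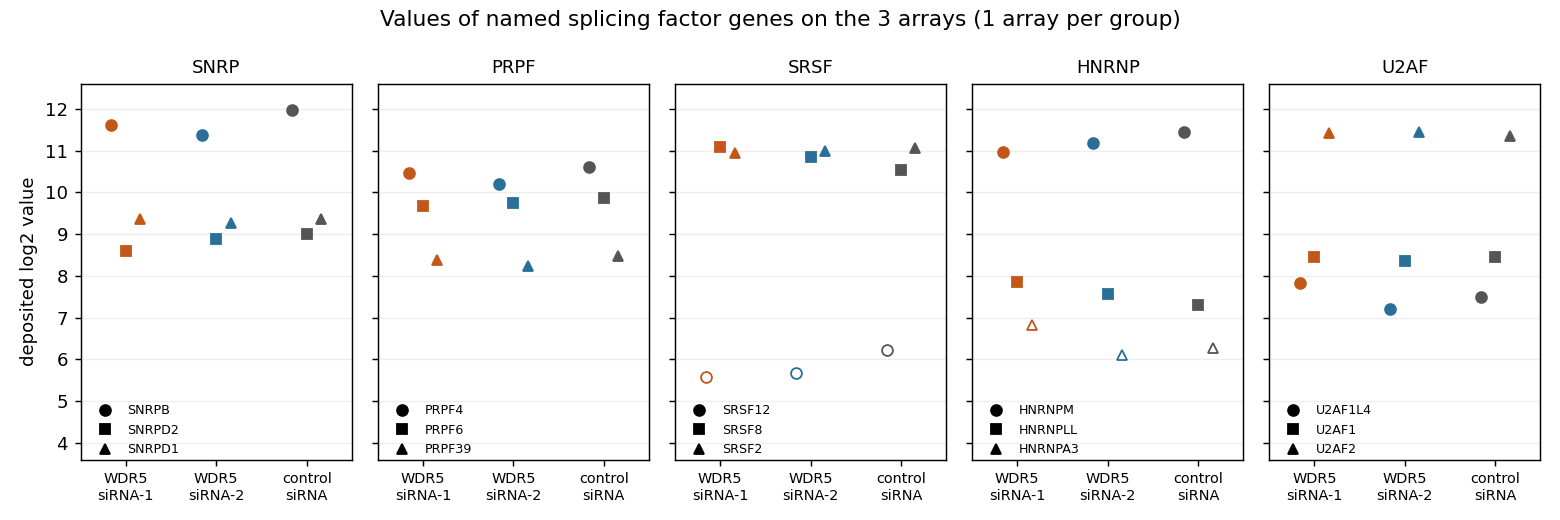
Deposited log2 value on each array for 3 genes of each of 5 families, with WDR5 siRNA-1, WDR5 siRNA-2 and control siRNA from left to right. Marker shapes name the gene and open markers lie below the filter level on average; SNRPB, PRPF4, SRSF12 and HNRNPM are lower on both WDR5 siRNA arrays, and SRSF8 and HNRNPLL are higher on both.

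Among SR proteins, the ends of the range belonged to SRSF8 and SRSF12. SRSF8 arose as an expressed retrocopy of SRSF2, and it stood at 11.09 with siRNA-1 and 10.85 with siRNA-2, against 10.54 with control. It was 1.47-fold and 1.24-fold higher, above control on both arrays. Median centring brought the first log2 ratio to 0.59, past 1.5-fold, and quantile normalization left it at 0.55, short of it. SRSF2 itself, which binds exonic enhancers, was at 10.94 and 10.98, against 11.06. The parent gene was therefore slightly below control on both arrays while the copy was above it. Whether probes of the copy and the parent read each other was not tested. SRSF12, an SR-related protein reported to oppose other SR proteins, was at 5.58 with siRNA-1 and 5.67 with siRNA-2, against 6.23 with control. It was 1.57-fold and 1.47-fold lower, but all its values lay under the filter level, so the size of the difference is uncertain.

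The other SR genes were nearer to control. SRSF7, which binds GA-rich exonic enhancers and links splicing to export, was at 10.62 with siRNA-1 and 10.28 with siRNA-2, against 10.55 with control. SRSF4 was at 8.64 and 8.35, against 8.64. In both genes the siRNA-2 array alone lay below control. SRSF1, the prototype SR protein, had ratios of 0.08 and -0.07, SRSF11 of 0.12 and -0.04, SRSF3 of 0.07 and 0, SRSF5 of 0.13 and -0.000691, and SRSF6 of 0 and 0. Of the 9 kept SRSF genes, 6 lay above control on the siRNA-1 array (background 38.1%), and 6 lay below it on the siRNA-2 array (background 41.6%). Their medians were 0.08 and -0.04. With median centring the second turned to 0.01, where that of all kept genes became 0.05.

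The HNRNP genes were the largest family, with 18 kept of 21. HNRNPM, which regulates exon choice in epithelial and mesenchymal transcripts, was at 10.96 with siRNA-1 and 11.18 with siRNA-2, against 11.45 with control. Both arrays lay below control, 1.40-fold and 1.20-fold. HNRNPLL, known for regulating the splicing of CD45 in lymphocytes, was at 7.85 and 7.56, against 7.31. It was above control on both arrays, 1.45-fold and 1.19-fold, and no other kept HNRNP gene was higher with both. HNRNPH3 was at 9.88 and 9.88, against 10.02, HNRNPDL at 10.29 and 10.21, against 10.37, and HNRNPL at 11.91 and 11.96, against 12.02. These 3 genes and HNRNPM made up the 4 of 18 that were lower with both (22.2%, background 22.3%). HNRNPLL was the 1 higher with both (5.56%, background 18%).

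A further set of HNRNP genes was above control with siRNA-1 and at or below control with siRNA-2. Of the 18 kept, 6 (33.3%) were above with siRNA-1 and below with siRNA-2, ties left out, where 14.4% of all kept genes were. HNRNPC, which packages nascent transcripts and masks cryptic exons, was at 8.94 with siRNA-1 and 8.52 with siRNA-2, against 8.57 with control. HNRNPA1L2, a retrocopy of HNRNPA1, was at 7.13 and 6.66, against 6.66. It passed the filter only through its siRNA-1 value, so it had to be higher there. HNRNPA3 was at 6.83 and 6.10, against 6.28, a 1.66-fold difference between the siRNAs at a level mostly under the filter. HNRNPUL1 had ratios of 0.18 and -0.19, HNRNPA0 of 0.19 and -0.07, HNRNPK of 0.17 and 0, HNRNPF of 0.11 and -0.06, HNRNPAB of 0.04 and -0.00234, and HNRNPU of 0.03 and -0.01. The family medians were 0.01 (siRNA-1) and -0.004945 (siRNA-2), against 0 for all kept genes with each. Median centring gave 0.05 and 0.04, against 0.04 and 0.05 for all kept genes. The sign with siRNA-2 thus changed with a shift that the background shared. HNRNPC, HNRNPA1 and HNRNPA3 have near-identical copies whose probes can read each other, and their single values are uncertain. The dropped pseudogene HNRNPA1P10 had a probe set at 12.30 with siRNA-1 and 12.22 with siRNA-2, against 12.47 with control.

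Exact ties limit what a ratio of 0 means. Of the 56 members, 11 (19.6%) had the same deposited value on all 3 arrays and 23 (41.1%) had it on at least 2. Over all named genes these shares were 34.5% and 62.9%. In the whole table the same value stood on all 3 arrays in 37.1% of rows. Of kept genes 14.9% were tied in this way, beside 16% of kept members. A tie of at least 2 arrays stood in 41.1% of kept genes and 38% of kept members. HNRNPA1 (9.17), HNRNPA2B1 (11.00), HNRNPH1 (8.14), HNRNPR (9.99), HNRNPUL2 (8.64), SRSF6 (11.69), SNRPF (7.36) and PRPF18 (7.72) were the 8 kept ones. In 5 of the 11, namely HNRNPA2B1, HNRNPH1, HNRNPR, HNRNPUL2 and SRSF6, no other row of any array held the value. In the others it recurred in unrelated rows, up to 223 rows of the control array for HNRNPCL1, 140 for SNRPG and 14 for SNRPF. Members without a tie could hold a recurring value too, which limits the ratios that use it. The most frequent were those of HNRNPA3 with siRNA-1 (40 rows), U2AF1L4 with control (17), HNRNPLL with siRNA-2 (10) and HNRNPC with control (8). The origin of the ties was not tested, so an exact 0 is read as the deposited value and not as a measured absence of change. Equal ratios with both siRNAs, as in PRPF19, PRPF31, HNRNPH3 and SNRPA, are likewise not read as separate arrays giving the same result.

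The direction of small differences was counted for each pair of arrays. With siRNA-1, 23 of the 50 kept members were higher than control, 17 lower and 10 equal, where 38.1% of all kept genes were higher and 38.2% lower. With siRNA-2, 4 were higher (SRSF8, HNRNPLL, U2AF2 and LSM12), 33 lower and 13 equal, where 32.6% of all kept genes were higher and 41.6% lower. Both siRNAs gave a lower value in 16 members (background 22.3%) and a higher one in 4 (background 18%). In 4 of the 16 (PRPF19, PRPF31, HNRNPH3 and SNRPA) the siRNA arrays held the same deposited value. Such a tie apart from the control value occurred in 492 of the 7442 kept genes. Of the kept members, 37 lay above the 75th percentile of level. Of these, 43.2% were higher and 40.5% lower with siRNA-1, and 8.11% higher and 67.6% lower with siRNA-2. Among the 3721 genes above that percentile, 47% were higher and 37.7% lower with siRNA-1, and 39.9% were higher and 44% lower with siRNA-2. This split moved with the scaling: median centring gave 23 members higher and 27 lower with siRNA-2, and quantile normalization gave 24 and 26, beside 65.2% and 65.8% of all kept genes higher. With siRNA-1 median centring gave 37 higher and 13 lower, and quantile normalization 36 and 14, beside 67.2% and 62.7% of all kept genes higher. Ties and ratios near 0 take the sign of the shift in such a count.

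**Figure D3:**
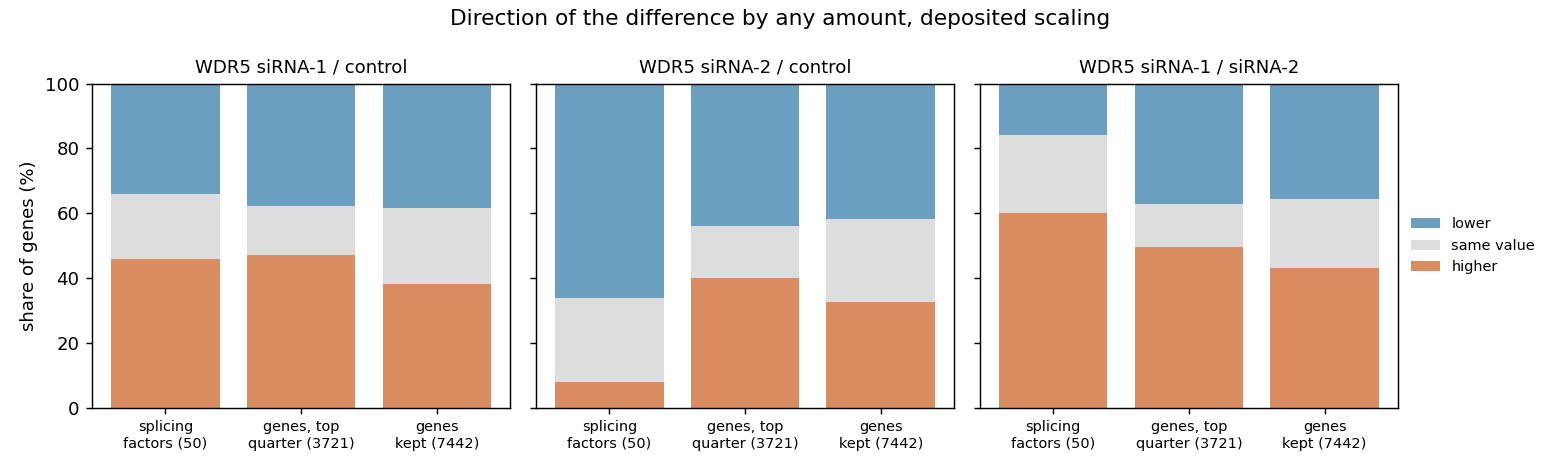
Share of genes higher, equal or lower by any amount in each pair of arrays, for the 50 kept splicing factor genes, the genes above the 75th percentile of level and all kept genes. In the middle panel 8% of the splicing factor genes are higher and 66% lower with WDR5 siRNA-2 than with control.

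The siRNAs were then set against each other, a pair of arrays that leaves the control out. In 30 of the 50 kept members the siRNA-1 value was the higher, in 8 the lower and in 12 it was equal, where 43.1% of all kept genes were higher and 35.5% lower. Among genes above the 75th percentile of level these shares were 49.7% and 37.1%. The 37 members above it were nearer to these, with 54.1% higher, 21.6% lower and a median log2 ratio of 0.03. The members' median log2 ratio of siRNA-1 over siRNA-2 was 0.09, against 0 for all kept genes. It was 0.08 with median centring and 0.05 with quantile normalization, against -0.00449 and -0.03 for all kept genes. Median centring split the members into 30 higher and 20 lower, and quantile normalization into 27 and 23, beside 42.6% and 38.8% of all kept genes higher. At 1.5-fold, 1 member (U2AF1L4) was the higher with siRNA-1 (background 4.21%) and 0 were lower (background 4.65%). At the limit of 0.32, 5 were higher (background 12.7%) and 0 lower (background 11.3%). The 5 were U2AF1L4 (0.62), HNRNPA1L2 (0.46), HNRNPC (0.41), HNRNPUL1 (0.37) and SRSF7 (0.34). Without HNRNPA1L2, for the same reason, 4 are left. The lowest were SNRPD2 (-0.29) and HNRNPM (-0.22).

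The 3 kept members with a CACGTG in the upstream stretch, HNRNPM, HNRNPDL and HNRNPH3, were among the 16 lower with both siRNAs. HNRNPA3, the fourth with this motif, was below the filter level and differed in sign. Over all kept genes with a promoter, those with CACGTG were lower with both in 21.7% of 549 genes and higher with both in 23%. Those without it were lower with both in 22.5% of 5437 genes and higher with both in 17.2%. So few members carry the motif that their ratios are given as values only.

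Other genes of the splicing pathway were counted from 6 lists with 185 genes, of which 138 were measured and 131 kept. Of these, 0 were 1.5-fold higher (background 0.618%) and 0 were 1.5-fold lower (background 0.847%) with both siRNAs. Shares this small correspond to few genes here too. Counted for siRNA-1 whatever siRNA-2 gave, 1 was higher (background 2.24%) and 0 lower (background 4.6%). Counted for siRNA-2 whatever siRNA-1 gave, 1 was higher (background 2.19%) and 0 lower (background 4%). Between the siRNA arrays 3 were higher with siRNA-1 (background 4.21%) and 2 lower (background 4.65%). The median of the 131 genes was 0 with each siRNA. By any amount, 44.3% were higher and 28.2% lower than control for siRNA-1, against 38.1% and 38.2% of all kept genes. For siRNA-2, 27.5% were higher and 47.3% lower, against 32.6% and 41.6%. Between the siRNA arrays, 55.7% had the higher value with siRNA-1 and 21.4% the lower, against 43.1% and 35.5%. These shares are on the deposited scale and were not recounted under another scaling. In the lists that follow, counts of genes lower or higher with both siRNAs by any amount stand beside a background of 22.3% lower and 18% higher. MBNL1, a regulator that promotes adult splicing patterns, stood at 11.84 with siRNA-1 and 11.73 with siRNA-2, against 11.15 with control, so both arrays were above control (0.69 and 0.58, the second just under 1.5-fold). Its paralog MBNL2 was at 10.03 and 10.03, against 9.62. MBNL3 (log2 ratios of -0.10 and 0.68) was higher with siRNA-2 only, and was named after its values were seen. The other leading tissue regulators, RBM5 (0.06 and 0.05) and KHSRP (0.13 and 0.04), were close to control. PTBP1, an hnRNP protein outside the symbol rule that was also named after its value was seen, was tied at 13.07 on the 3 arrays.

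Among 31 kept helicases and catalytic-step genes, 10 (32.3%) were lower with both siRNAs and 6 (19.4%) higher. SLU7, a second-step factor, was at 7.98 with siRNA-1 and 7.79 with siRNA-2, against 8.28 with control. DDX46, a helicase of the U2 snRNP, was at 10.05 and 9.85, against 10.33, and CDC5L, a partner of PRPF19, at 10.74 and 10.50, against 10.99. In these 3 genes the siRNA-2 array was the lowest. The helicase DDX41 went the other way, at 9.55 and 9.55, against 9.26. Among 25 other snRNP proteins, CD2BP2 of the U5 particle had ratios of -0.27 and -0.37, ZCRB1 of the minor spliceosome of -0.25 and -0.15, USP39 of 0.10 and 0.10, and SART3 of -0.05 and -0.05. Of this list 6 genes (24%) were lower with both and 3 (12%) higher.

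In the 16 kept snRNP assembly genes, 2 (12.5%) were lower with both and 3 (18.8%) higher, where 22.3% and 18% of all kept genes were. GEMIN5, the snRNA-binding subunit of the SMN complex, had ratios of 0.19 and 0.28, and GEMIN7 of -0.28 and -0.15. TGS1, which methylates the cap of snRNAs, had ratios of -0.10 and -0.19, and GEMIN2, under the filter level, of -0.19 and -0.38. PRMT5, which methylates Sm proteins and was named after its value was seen, was tied at 9.33. The 28 kept kinases of SR proteins and SR-related genes held 5 (17.9%) higher and 2 (7.14%) lower with both, led by DYRK1A (0.58 and 0.25), LUC7L (0.30 and 0.11), THRAP3 (-0.08 and -0.24) and SON (-0.04 and -0.26). Of the 14 kept exon junction and export genes, 4 (28.6%) were lower and 1 (7.14%) higher with both, led by THOC6 (-0.34 and -0.20), ZC3H11A (-0.15 and -0.37), THOC2 (0.06 and 0.03) and UPF2 (-0.01 and -0.16).

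**Figure D4:**
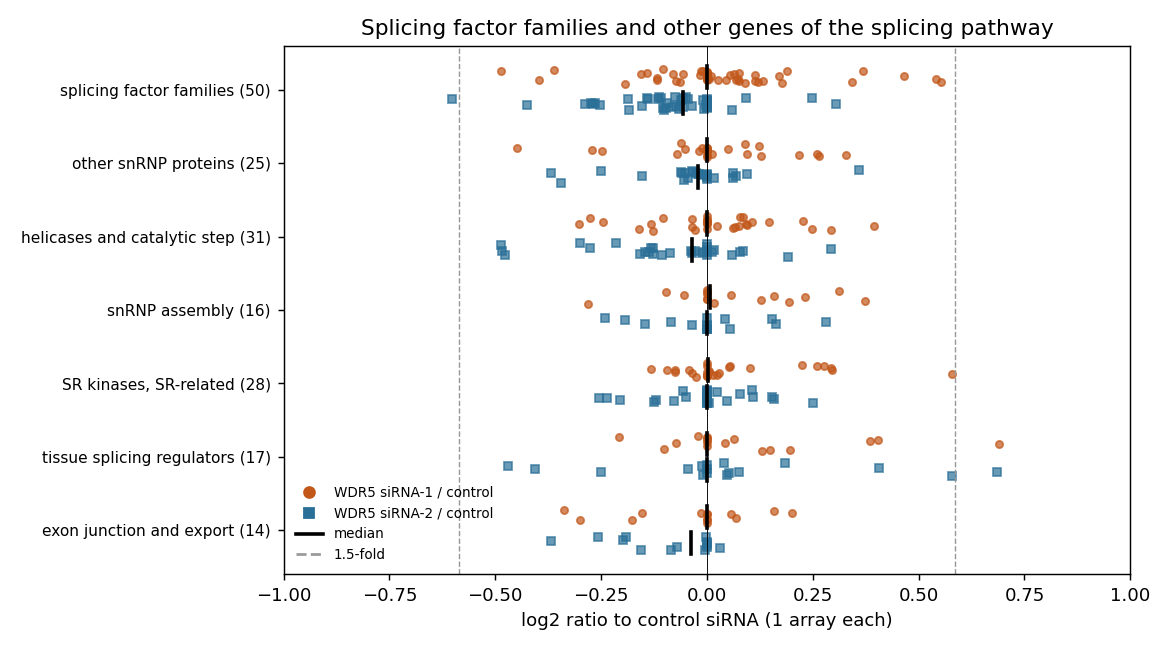
Log2 ratio to the control array for the kept splicing factor genes and for the kept genes of 6 other lists of the splicing pathway, with circles for WDR5 siRNA-1, squares for WDR5 siRNA-2 and bars for the median of each set. Numbers in parentheses count genes and dashed lines mark 1.5-fold; all the medians lie between -0.06 and 0.01.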

How the data were processed

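Expression was measured in 3 cultures, 1 array per group. The deposited table holds 1 value per probe set and array, and the authors' values fit a log2 scale by their range, which no source states. Per the submitters' processing notes MAS5 was used, with no role stated; background correction, normalization and probe summary are not given in the sources used here. No scaling was added. Gene symbols came from the platform annotation (16098 named, 37519 unnamed rows, 0 columns of other samples) and biotypes came from RefSeq (GRCh38.p14). The rule matched 64 probe sets of 62 genes, of which 6 pseudogenes were dropped. The probe set with the highest mean was used per gene (1 member, SNRPE, had 2). Ratios, counts and medians were computed with Python 3.11.15, numpy 2.4.6 and pandas 2.3.3. Precision is limited by the number of arrays, and no p-value was computed. The counting was tested on simulated data.

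The members and lists were chosen with earlier results of these data known. Genes named are all members, WDR5, the markers, and up to 4 genes of each other list by shared ratio (the smaller of the 2 absolute ratios where the signs match), with exceptions identified in the text. Alternatives were the filter, quantile normalization, median centring, the mean of probe sets, limits of 0.32 (log2) and 2-fold, and the mean over members.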

Additional observations from a re-analysis of the deposited data

Results flagged for a closer look

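HNRNPA3 and U2AF1L4 stood out because their ratios to control had opposite signs with the siRNAs and the siRNA arrays were at least 1.5-fold apart. The log2 ratio between the siRNA arrays, siRNA-1 on top, was 0.73 for HNRNPA3 and 0.62 for U2AF1L4. The siRNA-1 value of HNRNPA3 stood in 40 rows of that array, so the recurring values described for tied genes touch its ratio of 0.73. For U2AF1L4 the control value stood in 17 rows of the control array. That touches its ratios to control and not its ratio of 0.62 between the siRNA arrays. The differences were not tested, since each siRNA had 1 array.

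A probe set named for SNRPD2P2, a dropped pseudogene of SNRPD2, stood at 5.59 for siRNA-1 and 5.20 for siRNA-2, against 4.86 for control, so its log2 ratios were 0.74 and 0.34. SNRPD2 itself was lower on both arrays (-0.40 and -0.10). All 3 values of the pseudogene lay below the filter level.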

How the results depend on the processing

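Counts at 1.5-fold with both siRNAs stayed at 0 higher and 0 lower under the alternatives, except at a log2 limit of 0.32, where 1 member was lower. With siRNA-1, the 0 higher became 1 with median centring and 5 at 0.32, and the 0 lower became 1 with no filter (SRSF12) and 3 at 0.32. With siRNA-2, the 1 lower (SNRPB) became 0 with quantile normalization, with median centring and at 2-fold, and 2 at 0.32. For siRNA-1 over siRNA-2, the 1 higher became 2 with no filter (HNRNPA3 added), 0 with the 75th percentile filter and at 2-fold, and 5 at 0.32. The medians are too close to 0 for their direction to be firm. Median centring turned those of SRSF with siRNA-2 (-0.04, then 0.01), HNRNP with siRNA-2 (-0.004945, then 0.04) and SNRP with siRNA-1 (-0.00034, then 0.04), and quantile normalization turned the HNRNP and SNRP ones too (0.03 and 0.02). The median of all kept genes moved too, from 0 to 0.04 with siRNA-1 and 0.05 with siRNA-2 under median centring. Under quantile normalization it was 0.03 and 0.05, so the background shared the shift. The U2AF median with siRNA-2 was -0.12 and became 0.09 with the 75th percentile filter, where 1 gene was left. No paired analysis was possible because each group has 1 array. No replicate could be left out for the same reason. Levels near the filter limit the folds of SRSF12, HNRNPA3 and HNRNPA1L2.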
